A study of Homo sapiens with 4 samples.

Results

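The genes described are 10 that make serine and carry its carbon on folate, PHGDH, PSAT1, PSPH, SHMT1, SHMT2, MTHFD1, MTHFD2, MTHFD1L and ALDH1L2 with the folate receptor FOLR1. They were chosen by name, with earlier results of these data known, so the set is not independent of the values below. Every probe set with exactly 1 of these symbols was used, giving 22 of the 41091 probe sets with 1 symbol and 10 of 19775 genes. Of the 22, 10 end in _s_at or _x_at and can match several transcripts. Probe sets that name other genes as well, 1 for PHGDH, 2 for SHMT1 and 2 for MTHFD1L, were left out by the rule. The arrays held total RNA of HepG2 cells, a hepatocyte-like line grown from a human liver tumour, treated with 200 ng/ml of APRIL, a soluble cytokine related to tumour necrosis factor. There was 1 array each at 0 h, where the cells were untreated, and at 2, 6 and 12 h of APRIL. All cells had been without serum, for 24 h by the series design and overnight by the treatment protocol. Each time has a single array, so no replicate error and no test can be given, and every difference below is a difference between 2 arrays. APRIL and time in serum-free medium cannot be told apart, because no untreated array at 2, 6 or 12 h was used here.

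Serine is made from the glycolytic intermediate 3-phosphoglycerate by PHGDH, PSAT1 and PSPH in turn. The hydroxymethyltransferases SHMT1, in the cytosol, and SHMT2, in mitochondria, then turn serine into glycine and pass its side-chain carbon to tetrahydrofolate. In mitochondria MTHFD2 oxidises this carbon unit, MTHFD1L releases it as formate and ALDH1L2 oxidises it to carbon dioxide, while in the cytosol MTHFD1 takes up formate for purine and thymidylate synthesis. Several of these genes are known targets of ATF4, the transcription factor of the amino acid and integrated stress response.

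Promoters from RefSeq were read for the members that the table holds, because PHGDH, PSAT1 and MTHFD2 shared an order of steps and each has a window. All of them were higher at 2 h than 0 h, lower at 6 h than 2 h and higher at 12 h than 6 h. This order was found in 18.5% of all genes. Their lows were not shared, since PHGDH was lowest at 0 h and PSAT1 and MTHFD2 at 6 h. Each window holds the 250 bases before and the 50 after a gene start in GRCh38.p14, and 6 of the 10 genes had one. Both strands were searched for TGATGNAA, the composite element bound by C/EBP and ATF4 proteins, and for CCAAT, the NF-Y box, a motif added after the values were seen. The motifs share no letters at any of these matches. Capitals mark matches of either motif on either strand. All 4 windows printed lie on the plus strand, PHGDH at chr1:119711684-119711983, PSAT1 at chr9:78296875-78297174, MTHFD2 at chr2:74198365-74198664 and the window of MTHFD1L at chr6:150866197-150866496.
PHGDH: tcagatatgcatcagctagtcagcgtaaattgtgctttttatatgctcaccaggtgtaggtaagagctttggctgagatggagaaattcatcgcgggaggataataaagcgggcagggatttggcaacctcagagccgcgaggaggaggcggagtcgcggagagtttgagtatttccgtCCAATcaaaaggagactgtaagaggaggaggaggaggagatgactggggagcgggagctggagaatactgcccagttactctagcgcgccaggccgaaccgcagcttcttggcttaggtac
PSAT1: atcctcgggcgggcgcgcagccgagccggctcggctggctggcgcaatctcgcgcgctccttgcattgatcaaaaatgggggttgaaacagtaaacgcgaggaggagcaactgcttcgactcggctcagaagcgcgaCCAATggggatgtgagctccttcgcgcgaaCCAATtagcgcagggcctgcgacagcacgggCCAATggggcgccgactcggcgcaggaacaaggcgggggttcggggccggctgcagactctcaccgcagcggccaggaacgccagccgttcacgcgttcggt
MTHFD2: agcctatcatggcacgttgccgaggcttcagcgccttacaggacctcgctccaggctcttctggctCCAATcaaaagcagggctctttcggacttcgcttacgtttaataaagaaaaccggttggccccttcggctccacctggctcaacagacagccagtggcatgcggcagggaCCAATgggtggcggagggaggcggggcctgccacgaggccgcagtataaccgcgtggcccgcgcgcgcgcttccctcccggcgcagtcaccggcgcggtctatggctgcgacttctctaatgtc
MTHFD1L: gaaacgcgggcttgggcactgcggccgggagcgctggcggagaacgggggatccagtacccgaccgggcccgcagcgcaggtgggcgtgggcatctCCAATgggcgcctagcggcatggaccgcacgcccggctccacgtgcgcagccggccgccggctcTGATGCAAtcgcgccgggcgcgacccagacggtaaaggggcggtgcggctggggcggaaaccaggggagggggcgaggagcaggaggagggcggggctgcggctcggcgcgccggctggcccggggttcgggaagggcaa
TGATGNAA was found in 1 of the 6 members, MTHFD1L, as TGATGCAA starting 90 bases before the gene start of the window printed. MTHFD1L has 4 windows, of which 3 overlap and hold this same match. It starts 129 bases before the gene start of one of them, and past the gene start of another, at base 25. Whether it lies before or within the transcript thus depends on the gene start taken. Of all genes with a window, 4.46% held TGATGNAA and 1.08% held TGATGCAA. The PHGDH, PSAT1 and MTHFD2 windows held no such letters, which says nothing of sites elsewhere. CCAAT was found in all 6 members, against 39.7% of all genes with a window. PSAT1 had 3 matches, starting 113, 83 and 52 bases before the gene start, MTHFD2 had 2, at 184 and 74 bases, and PHGDH had 1, at 71 bases. A match describes the letters only.

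The deposited values are log2 values centred on each probe set's own median over the 4 arrays, so they order the arrays for 1 probe set and hold no expression level. The base and the direction, higher for more transcript, are taken from how RMA works and are not stated. Whether the labelled cell type carries its hepatocyte products at a high level could therefore not be checked. Between the 2 h and 0 h arrays the robust SD over all genes was 0.16, and it was 0.20 between 6 h and 0 h and 0.24 between 12 h and 0 h. A gene's ratio is the median over its probe sets, and it is called from 1.5-fold upward in either direction, which is 0.58 on the log2 scale. The spike-in RNAs, read by 18 control probe sets with Bio or Cre in their names, stood at a median log2 ratio of -0.35 at 12 h. The median of all genes was 0.01. These controls are not read as a measure of the RNA taken from the cells, so ratios relative to them are only another scaling. Centring on the spike-in RNAs adds 0.35 to each 12 h ratio, so the 12 h directions below hold against the array's median gene.

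At 12 h, 4 of the 10 genes were called higher than at 0 h, namely FOLR1, SHMT2, PHGDH and MTHFD2, and 1, PSPH, was called lower. Among all genes 4.46% were called higher and 3.7% lower at this time. At 2 h, FOLR1 was the only member called higher, against 0.308% of all genes, and no member was called lower, against 0.344%. At 6 h FOLR1 was again the only one called higher, with 1.15% of all genes, and no member was called lower, with 1.64%. The median over the 10 members was 0.25 at 2 h, -0.13 at 6 h and 0.18 at 12 h, and over all genes 0.016, 0.047 and 0.01. These 3 comparisons share the 0 h array.

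**Figure D1:**
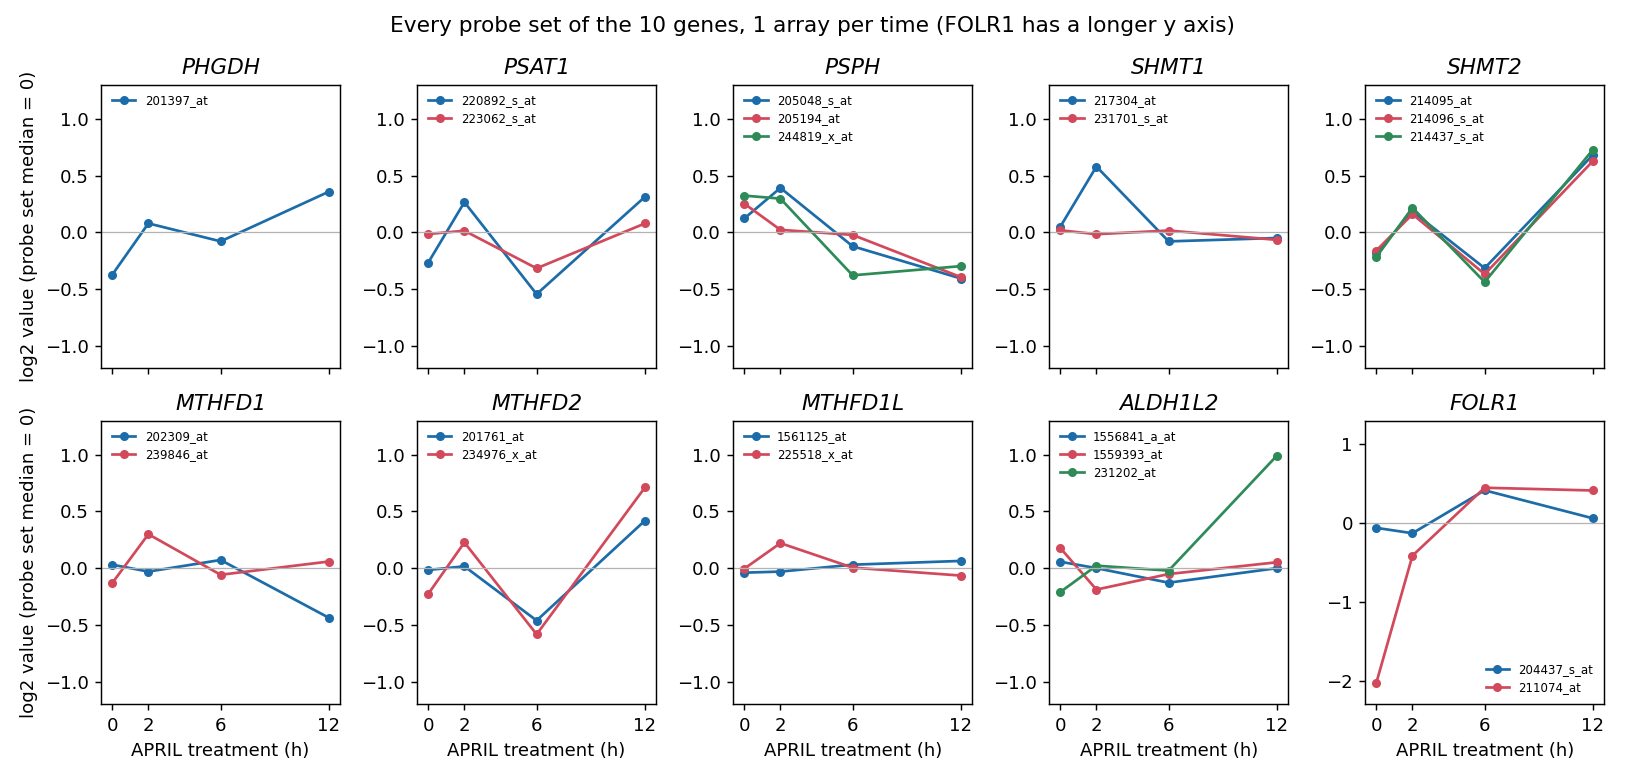
Centred log2 value of every probe set (y axis, 0 is the median of that probe set over the 4 arrays) against hours of APRIL (x axis), 1 panel per gene and 1 line per probe set, 1 array per time. The 7 lines of PSAT1, SHMT2 and MTHFD2 are lowest at 6 h and highest at 12 h, and the 2 lines of FOLR1 differ in size at 0 h.

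PHGDH, the first and committed enzyme of serine synthesis, was read by 1 probe set, 201397_at. Its centred log2 value stood at -0.37 at 0 h, 0.079 at 2 h, -0.079 at 6 h and 0.36 after 12 h. The 0 h array was the lowest and the 12 h array the highest, and all 3 treated arrays lay above the untreated one. The log2 ratio to 0 h was 0.45 at 2 h, 0.29 at 6 h and 0.73 at 12 h, the last a 1.66-fold difference.

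PSAT1, the aminotransferase of the next step, was read by 2 probe sets that moved in the same directions at every step and differed in size. Probe set 220892_s_at stood at -0.27 at 0 h, 0.27 at 2 h, -0.54 at 6 h and 0.31 after 12 h. Probe set 223062_s_at stood at -0.014, 0.014, -0.32 and 0.079 at these times. Both were lowest at 6 h and highest at 12 h. Their median log2 ratio to 0 h was 0.28 at 2 h (SD 0.36 over 2 probe sets), -0.29 at 6 h (SD 0.017) and 0.34 at 12 h (SD 0.34). None of these reached 1.5-fold, and at 2 and 12 h 1 of the probe sets lay near 0.

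PSPH, the phosphatase that releases free serine, stood on the other side of 0 h from PHGDH and PSAT1 at 12 h. Its 3 probe sets were all lower at 12 h than at 0 h, with log2 ratios of -0.53 for 205048_s_at, -0.65 for 205194_at and -0.62 for 244819_x_at. The median was -0.62, or 1.54-fold lower, with an SD of 0.062 over the 3. Probe set 205194_at stood at 0.25 at 0 h, 0.022 at 2 h, -0.022 at 6 h and -0.39 after 12 h. At 6 h all 3 were below 0 h, from -0.70 to -0.24, and at 2 h they lay on both sides of 0 h, from -0.23 to 0.27. Read by its probe set of widest range, PSPH was not called at 12 h, and relative to the spike-in RNAs its ratio was -0.27. The first and last enzymes of serine synthesis thus stood at log2 ratios of 0.73 and -0.62 on the same 12 h array.

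**Figure D2:**
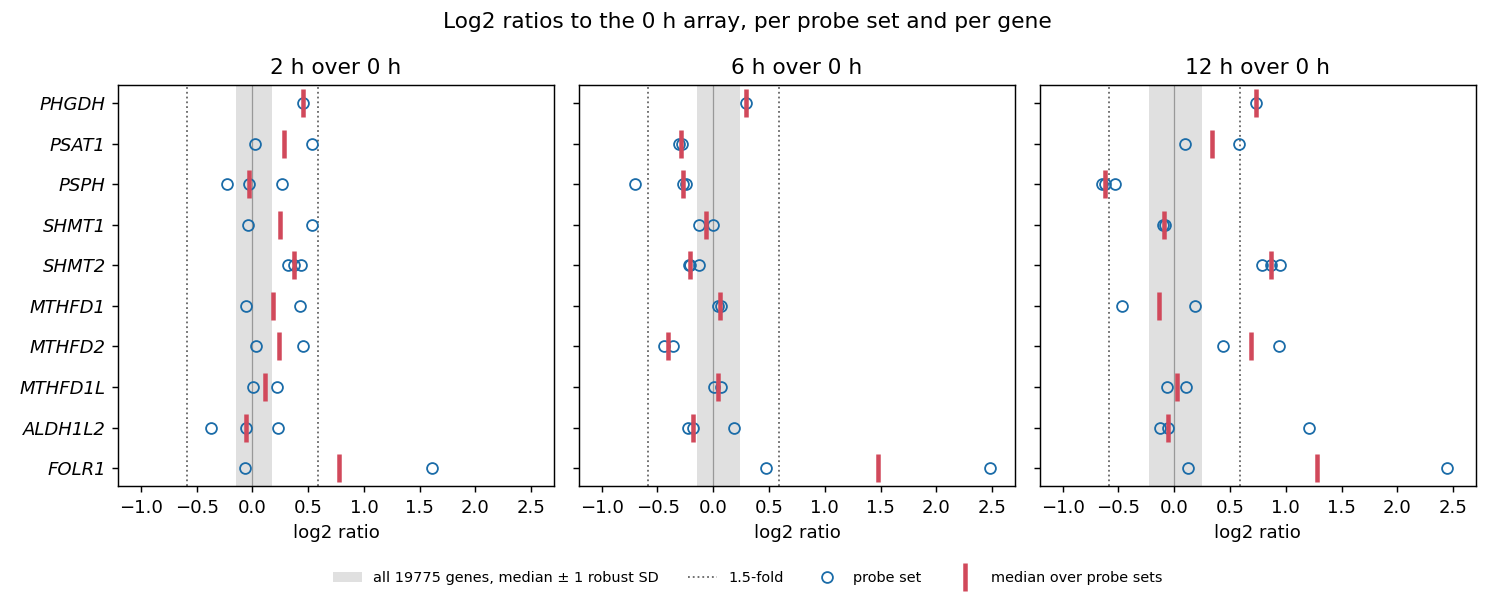
Log2 ratio to the 0 h array (x axis) at 2, 6 and 12 h for each of the 10 genes (y axis). Circles are probe sets, red bars their median, dotted lines 1.5-fold, and the grey band is the median of all 19775 genes ± 1 robust SD. At 12 h the 3 circles of SHMT2 lie together between 0.79 and 0.95, while those of ALDH1L2 and FOLR1 lie far apart.

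SHMT2, the mitochondrial hydroxymethyltransferase, had the closest agreement between probe sets among the members called higher at 12 h that have several. Its probe set 214095_at stood at -0.18 at 0 h, 0.18 at 2 h, -0.32 at 6 h and 0.68 after 12 h. Its probe set 214096_s_at stood at -0.16, 0.16, -0.37 and 0.63 at these times. Its probe set 214437_s_at stood at -0.22, 0.22, -0.44 and 0.73. In all 3 the 6 h array was lowest and the 12 h array highest, with the 2 h array above the 0 h array. The log2 ratio to 0 h was 0.37 at 2 h (SD 0.057 over 3 probe sets), -0.21 at 6 h (SD 0.049) and 0.87 at 12 h (SD 0.079), a 1.83-fold difference at 12 h. Probe sets of 1 gene share the RNA of 1 array, so these SDs describe the spread between probe sets and hold no replicate error.

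SHMT1, its cytosolic counterpart, did not share this course. Probe set 231701_s_at stayed between -0.066 and 0.018 on all 4 arrays. Probe set 217304_at stood at 0.05 at 0 h, 0.58 at 2 h, -0.080 at 6 h and -0.050 after 12 h, so that only its 2 h array stood apart. At 12 h both probe sets were near 0 h, with a median log2 ratio of -0.092 (SD 0.010), while SHMT2 stood at 0.87. Relative to the spike-in RNAs the 12 h ratios were 0.26 for SHMT1 and 1.22 for SHMT2.

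MTHFD2, the mitochondrial dehydrogenase and cyclohydrolase, followed the order of SHMT2. Probe set 201761_at stood at -0.016 at 0 h, 0.016 at 2 h, -0.46 at 6 h and 0.42 after 12 h. Probe set 234976_x_at stood at -0.23, 0.23, -0.58 and 0.71 at these times. The 6 h array was the lowest and the 12 h array the highest in both. The median log2 ratio to 0 h was 0.24 at 2 h (SD 0.30 over 2 probe sets), -0.40 at 6 h (SD 0.063) and 0.69 at 12 h (SD 0.36). Probe set 201761_at alone gave 0.44 at 12 h, below 1.5-fold, and the _x_at probe set, which can match several transcripts, gave 0.94.

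MTHFD1, the cytosolic trifunctional enzyme, had probe sets that disagreed. Probe set 202309_at stood at 0.030 at 0 h, -0.030 at 2 h, 0.072 at 6 h and -0.44 after 12 h, so its 12 h array was the low one. Probe set 239846_at stood at -0.13, 0.30, -0.058 and 0.058, with the 2 h array the high one. The median log2 ratio at 12 h was -0.14 (SD 0.47), and it was 0.21 relative to the spike-in RNAs, so no direction is given.

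MTHFD1L, the mitochondrial formate-releasing enzyme, showed the narrowest range of gene ratios to 0 h among the 10 members. Probe set 1561125_at stayed between -0.040 and 0.064, and 225518_x_at between -0.066 and 0.22. The median log2 ratio to 0 h was 0.12 at 2 h, 0.040 at 6 h and 0.021 at 12 h. It is also the member whose promoter window holds the TGATGNAA match printed above.

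ALDH1L2, the mitochondrial formyltetrahydrofolate dehydrogenase, was split between its 3 probe sets. Probe set 231202_at stood at -0.21 at 0 h, 0.022 at 2 h, -0.022 at 6 h and 0.99 after 12 h. Only its 12 h array was high, with a log2 ratio to 0 h of 1.20. Probe set 1556841_a_at gave -0.056 and 1559393_at gave -0.13 for the same comparison. The median of -0.056 therefore hides 1 probe set past 2-fold (SD 0.75), and which of the 3 follows the main transcript cannot be told from values without levels.

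FOLR1, the high-affinity folate receptor of the cell surface, had the largest gene ratios of the 10 at all 3 times, but they rest on 1 of its 2 probe sets. Probe set 211074_at stood at -2.03 at 0 h, -0.41 at 2 h, 0.45 at 6 h and 0.41 after 12 h. Its 0 h array lay far below the other 3. Probe set 204437_s_at stood at -0.060 at 0 h, -0.13 at 2 h, 0.42 at 6 h and 0.060 after 12 h, and here only the 6 h array stood higher. The log2 ratios to 0 h were 1.61 and -0.068 at 2 h, 2.48 and 0.48 at 6 h, and 2.44 and 0.12 at 12 h, for 211074_at and 204437_s_at in each case. The gene medians were 0.77, 1.48 and 1.28, with SDs of 1.19, 1.41 and 1.64 over the 2 probe sets. At 6 h both probe sets were above 0 h, and both were above the 2 h array, by 0.86 and 0.54.

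The step comparisons separate these courses further. From 2 h to 6 h, 9 of the 10 members had a ratio below 0, with a median of -0.24 against 0.036 for all genes. Of all genes 56.7% were above 0 at this step. Of the members' 22 probe sets 16 were below 0, and those of SHMT1, MTHFD1, MTHFD1L and ALDH1L2 were of mixed sign. MTHFD2 was called lower at -0.64 (1.56-fold), where 2.07% of all genes were called lower, and FOLR1 was called higher at 0.70, where 1.57% were. PSAT1 at -0.57, SHMT2 at -0.53 and PSPH at -0.51 lay just short of 1.5-fold. From 6 h to 12 h, MTHFD2 stood at 1.09 (2.13-fold), SHMT2 at 0.9996 and PSAT1 at 0.63, all called higher, where 3.51% of all genes were, and no member was called lower, where 3.4% were. The 2 steps share the 6 h array, so a low value there enters both.

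The 7 probe sets of PSAT1, SHMT2 and MTHFD2 were the only ones of the 22 with the lowest value at 6 h and the highest at 12 h. Among all probe sets with 1 symbol 7.86% had this order. At the level of genes, PHGDH, PSAT1, SHMT2 and MTHFD2 were above 0 h at 2 h, below 2 h at 6 h and above 6 h at 12 h, an order found in 18.5% of all genes. PHGDH differed from the other 3 at 6 h, where it stood above its 0 h value by 0.29 while they stood below theirs by 0.21 to 0.40.

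Related genes were read from 6 lists with 82 entries, of which 74 had a probe set with 1 symbol. The lists were also written with earlier results of these data known. In the list of ATF4 and its targets, 20 of 21 genes were above 0 at 12 h and 11 were called higher, with a median of 0.64. Among all genes 51.7% were above 0 at 12 h and 4.46% were called higher. The list's median was 0.25 at 2 h and -0.068 at 6 h, and -0.34 from 2 h to 6 h and 0.72 from 6 h to 12 h. ATF4 itself stood at 0.12 at 2 h, -0.068 at 6 h and 0.37 at 12 h. The stress transcription factors ATF3 and DDIT3 stood at 1.23 (SD 0.95, 3 probe sets of mixed sign) and 0.99 at 12 h, and DDIT4, an inhibitor of mTORC1, at 1.13. SLC7A11, the cystine transporter, stood at 0.47 at 2 h, -1.50 at 6 h and 0.53 at 12 h, and CTH, which makes cysteine from cystathionine, at 0.53, -1.10 and 0.49. These 2 were the genes of the lists past 2-fold lower at 6 h, the array on which PSAT1, SHMT2 and MTHFD2 were lowest. Such a low was found in part of the list. At 6 h 12 of its 21 genes were below 0 and 9 above, DDIT4 at 0.47 and DDIT3 at 0.30 among them. At 6 h 3 of the 21 were called lower, against 1.64% of all genes, of which 59.6% were above 0. Besides SLC7A11 and CTH this was VLDLR, named after its value was seen, at -0.60. From 2 h to 6 h, 14 of the 21 were below 0 and 7 above. At this step 7 were called lower and 1 higher, against 2.07% and 1.57% of all genes. From 6 h to 12 h, 20 were above 0 and 13 were called higher, against 3.51% of all genes.

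The list of other serine and glycine metabolism holds enzymes that use these amino acids and some that make glycine or handle related compounds. Of its 13 genes read, 10 were below 0 at 12 h, with a median of -0.41, while 51.7% of all genes were above 0. At 12 h 4 were called lower and 1 higher, against 3.7% and 4.46% of all genes. Relative to the spike-in RNAs, 7 of the 13 were below 0, with a median of -0.057. On that scale 1 was called lower, GCAT, against 1.16% of all genes. As deposited, GCAT, glycine C-acetyltransferase, stood at -1.03 at 12 h (SD 0.11 over 2 probe sets). GLDC, the decarboxylase of the glycine cleavage system, stood at -0.93 and GNMT, which methylates glycine, at -0.84. The other subunits of the glycine cleavage system, named after their values were seen, stood at -0.61 for AMT, -0.41 for GCSH and -0.45 for DLD. All 4 subunits were below 0 h, and relative to the spike-in RNAs they remained below it, from -0.58 to -0.057. The gene called higher was CBS, named after its value was seen, which joins serine to homocysteine, at 0.77 (SD 0.56, 3 probe sets of mixed sign). At 2 h the list median was 0.12 and at 6 h 0.037, with GNMT the only gene called at either time, at 0.63 at 6 h.

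**Figure D3:**
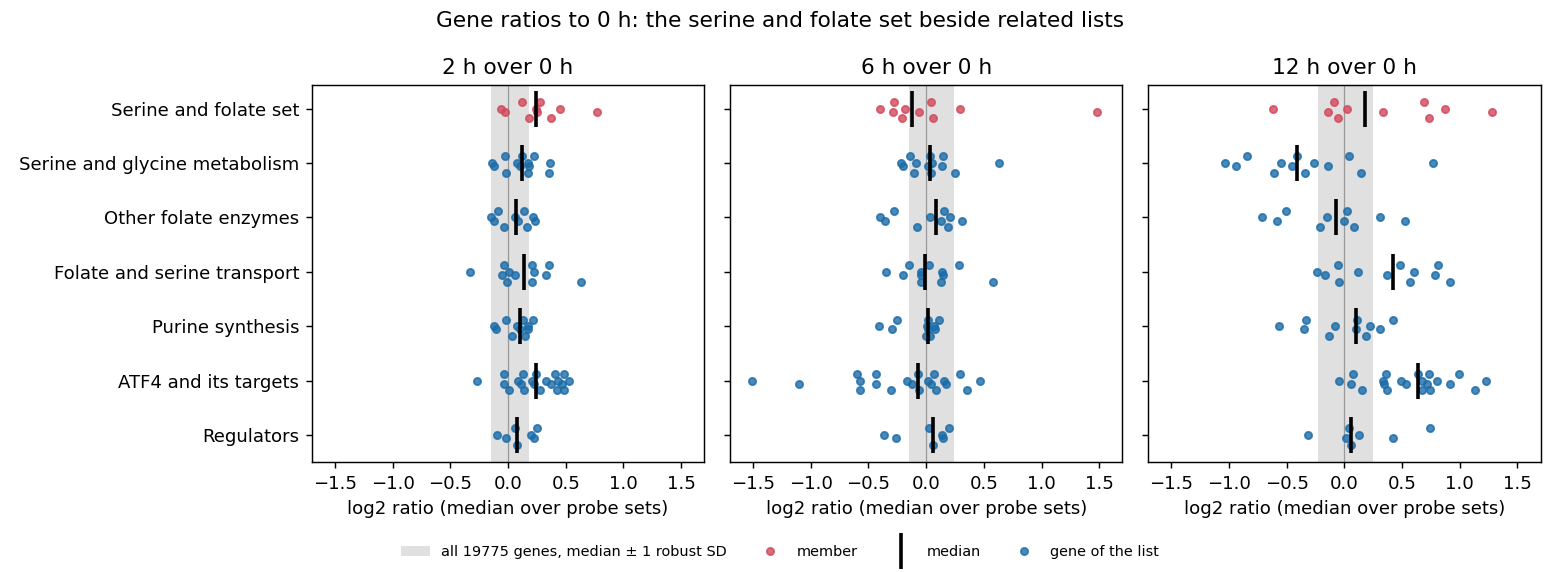
Gene log2 ratios to 0 h (x axis) at 2, 6 and 12 h for the 10 members (red) and for 6 related lists (blue), 1 point per gene, with each list's median as a black bar and the grey band for all genes, median ± 1 robust SD. At 12 h the median lies at 0.64 for ATF4 and its targets and at -0.41 for serine and glycine metabolism.

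Among transporters of folate, serine and other neutral amino acids, 8 of 12 genes were above 0 at 12 h, with a median of 0.43. At this time 4 were called higher, against 4.46% of all genes, of which 51.7% were above 0. SLC1A5 stood at 0.91, SLC38A2 at 0.81 (SD 0.16 over 3 probe sets) and SLC1A4 at 0.78 (SD 0.65, 5 probe sets of mixed sign), all carriers of neutral amino acids. SLC1A5 was already at 0.64 at 2 h, the only gene of the lists called at that time. The other gene called higher at 12 h, SLC19A1, the reduced folate carrier, stood at 0.60 and was named after its value was seen. With the _s_at and _x_at probe sets left out, the median over the 8 genes left was -0.015.

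The other folate enzymes and purine synthesis had small medians. Of all genes 53.5% were above 0 at 2 h and 51.7% at 12 h. Of 10 other folate enzymes 4 were above 0 at 12 h, with a median of -0.075, or 0.28 relative to the spike-in RNAs. Thymidylate synthase, TYMS, stood at -0.71 (SD 0.50, 3 probe sets of mixed sign), FTCD, which feeds histidine carbon into folate, at -0.58 (SD 0.27, 6 probe sets of mixed sign) and MTRR, which reactivates methionine synthase, at 0.53. Of 11 purine synthesis genes 8 were above 0 at 2 h, with a median of 0.10, and 6 at 12 h, with a median of 0.10, and none was called at either time. At 12 h the purine median was 0.46 relative to the spike-in RNAs. From 2 h to 6 h, 9 of these 11 were below 0, with a median of -0.096, while 56.7% of all genes were above 0. From 6 h to 12 h 7 were above 0, with a median of 0.10, against 45.1% of all genes. PRPS2 stood at -0.56 (SD 0.72 over 2 probe sets), ATIC at 0.42 and PFAS at -0.35. In the list of 7 regulators the median at 12 h was 0.057, with KEAP1 at 0.74, MYC at 0.43 and KDM4C at -0.31 (SD 0.32 over 4 probe sets). MYC, a known activator of serine synthesis genes, stood at 0.23 at 2 h and -0.37 at 6 h.

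Likeness of course was measured as the Euclidean distance over the 3 log2 ratios to 0 h, among 10514 genes with 2 or more probe sets. The genes nearest to PHGDH were ADCY10P1 (distance 0.097), PQBP1 (0.12), UBALD1 (0.15), MGAT4B (0.17) and RANGAP1 (0.18). The genes nearest to FOLR1 were RSRP1 (0.81), SOCS5 (0.95), DUSP10 (0.96), TOR4A (0.97) and PLCXD1 (0.97), all much farther off. The FOLR1 course used is the median of 2 probe sets that disagree in size, and at 2 h in sign, so neither has that course. At 6 h only 3 genes, FOLR1 among them, stood at or above its ratio, so few could lie near. With 4 arrays such distances are a description only.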

How the data were processed

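The authors deposited 1 table of log2 values for 54675 probe sets of the Affymetrix U133 Plus 2.0 array, which came from RMA, of unstated version, per the submitters' processing notes. Every probe set's median over the 4 arrays was 0 within 1e-06. How they were centred is not given in the sources. Base 2 and the direction, higher for more transcript, were taken from RMA practice and are not stated. Column medians were -0.0050, 0, 0.011 and -0.0043 at 0, 2, 6 and 12 h. Symbols came from the platform annotation: 41091 probe sets had 1 symbol, 1801 several, 11721 none here, and 62 were controls.

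Ratios between arrays were computed per probe set with pandas 2.3.3 and numpy 2.4.6, then summarised per gene as the median of its probe sets. A robust SD is the scaled median absolute deviation. The small number of arrays limits precision. Members and lists were chosen with earlier results of these data known. The genes named were all members, the 3 of each list with the largest 12 h ratio, those past 2-fold at any time, and the 5 nearest in course to PHGDH and to the member of largest 12 h ratio whose probe sets had 1 sign. The computation was tested on simulated data. Alternatives were centring on array medians or spike-in RNAs, leaving out _s_at and _x_at probe sets, the mean or the widest-range probe set per gene, and a lower (0.32 on the log2 scale) and a higher (2-fold) threshold.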

Additional observations from a re-analysis of the deposited data

How the results depend on the processing

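Centring each array on its median left every count of members called, every member ratio and every list median within the limits set, which were 1.5 times for a count and 0.16 for a log2 value. No called member ratio changed sign under any alternative run. Centred on the spike-in RNAs, 0 members were called lower at 12 h in place of 1, where 1.16% of all genes were, and 5 were called higher, PSAT1 among them, where 19.3% of all genes were. The 12 h list medians were -0.057 for serine and glycine metabolism, 0.28 for other folate enzymes, 0.78 for transport, 0.46 for purine synthesis, 0.99 for ATF4 and its targets and 0.41 for regulators. These 12 h values move by construction, since the same 0.35 is added to each. With the widest-range probe set, 0 members were called lower at 12 h, where 8.08% of all genes were, and 5 were called higher, ALDH1L2 among them, where 9.61% were. Without _s_at and _x_at probe sets, PSAT1 had no probe set left, and the transport median at 12 h was -0.015 over 8 genes. Of the 9 members read in this way, 3 were called higher at 12 h, PHGDH, SHMT2 and FOLR1, where 4.72% of all genes were. PSPH was still called lower, where 3.92% were. MTHFD2 was at 0.44 and no longer called, and FOLR1, left with 211074_at, was at 2.44. At 2-fold, 0 members were called higher at 2 h, 1 was called higher at 12 h and 0 lower at 12 h. At a threshold of 0.32 on the log2 scale, 3 were called higher at 2 h and 1 lower at 6 h. Among all genes, 0.0354% were past 2-fold higher at 2 h, 0.946% higher at 12 h and 0.986% lower at 12 h. At the lower threshold 3.8% of all genes were higher at 2 h and 6.38% lower at 6 h. Of 147 member ratios recomputed, 32 moved by more than the limit, 14 of them with the widest-range probe set. No paired analysis was possible because each time has 1 array. Signal over background is unknown, since the centred values hold no levels.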
